A study of Mus musculus with 6 samples.

Results

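*Gm15645* and *Gm15880* are noncoding genes on mouse chromosome 7. They were chosen by their change between *Ahr*+/+ and *Ahr*-/- B cells in these same libraries, *Gm15645* being far higher and *Gm15880* far lower in the *Ahr*-/- cells. *Dchs1*, *Mrpl17* and *Crtc3* were taken with them because their annotated spans overlap the noncoding genes on the opposite strand, and not for a change of their own. Together these are 5 of the 23420 genes in the count table, and 4 of the 5 had enough counts to be tested. B cells were isolated from the spleens of 3 *Ahr*+/+ and 3 *Ahr*-/- mice on a C57Bl/6J background, used after 8 weeks of age. Both genotypes received the same treatment, an 8 h culture in 10 μg/ml α-IgM to stimulate the B cell receptor, and in 20 ng/ml IL-4. The AhR ligand FICZ was added to both at 250 nM for the last 4 h, so no untreated cells enter these comparisons. The *Ahr*-/- allele is a germline one that every cell of the mouse carries, and the line's name gives a 129 strain as its origin.

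AhR is a transcription factor that stays in the cytoplasm until it binds a small ligand such as FICZ, and then pairs with ARNT in the nucleus and binds DNA with the core GCGTG. A processed pseudogene is a copy of a spliced messenger RNA that was inserted back into the genome, and it can be so like its parent gene that short reads fit both. An antisense RNA is read from the strand opposite a coding gene, so that counts on either can mix where strand is not used in counting. *Crtc3* encodes a coactivator of CREB, which SIK kinases keep in the cytoplasm and calcineurin releases. *Mrpl17* encodes a protein of the large subunit of the mitochondrial ribosome, and *Dchs1* a large cadherin that binds Fat cadherins on neighbouring cells.

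Total counts lay between 34402709 and 40065169 in the *Ahr*+/+ libraries and between 22095096 and 53648787 in the *Ahr*-/- libraries. Levels are given as normalized counts, that is, counts divided by the library's size relative to the mean of the 6 libraries. *Ahr* itself had 13175 ± 682 normalized counts (SD, n = 3 mice) in *Ahr*+/+ and 9174 ± 472 (SD, n = 3 mice) in *Ahr*-/- cells, and the lower group did not overlap the higher. A gene count does not show which *Ahr* exons were read. Of the 13682 genes tested by edgeR, 17.9% were called at an adjusted p under 0.05 in either direction and 8.13% were called lower. The groups did not overlap for 33.5% of the tested genes. Of 5 B cell markers, 4 were called higher in *Ahr*-/- cells (their summed level was 62073 to 65180 normalized counts in *Ahr*+/+ and 74182 to 77537 in *Ahr*-/- libraries). Of 5 markers of plasmacytoid dendritic cells, 4 were called higher, with sums of 2113 to 2515 and 2615 to 3675 normalized counts. Most of this sum was *Bst2*, which was not called (means of 2127 and 2498), while *Siglech* rose from 56.8 to 270, *Lifr* from 66.8 to 180 and *Klk1* from 8.89 to 41.2 mean normalized counts, and *Runx2* also rose (log2 fold change 1.47). Conventional dendritic cell markers were called higher for 4 of 5 and lower for 1, with sums of 654.7 to 769 and 750.4 to 907 normalized counts. Here *Zbtb46* fell from a mean of 552 to 418, while *Itgax* rose from 148 to 302, *Cd209a* from 6.50 to 36.5, *Clec10a* from 7.53 to 26.6 and *Clec9a* from 5.87 to 20.7. Of 6 macrophage and monocyte markers 1 was called lower and none higher (1192 to 1479 and 604.5 to 1085 normalized counts). The marker called was *Emr1*, which fell from a mean of 649.7 to 54.1, while *Csf1r* (93.1 and 137), *Lyz2* (129.9 and 209), *Vcam1* (21.4 and 53.1) and *Fcgr1* (1.69 and 2.33) had higher means in *Ahr*-/- cells, *Cd68* (439 and 391) had a lower one, and none of these was called. Of 5 T cell markers 1 was called lower (122 to 236 and 139 to 147), and of 3 natural killer cell markers 2 higher (55.4 to 96.6 and 102 to 143). No neutrophil marker of the 3 tested was called (86.4 to 282 and 104 to 397 normalized counts), nor was the erythroid marker tested (0 to 12.1 and 3.65 to 5.15 for the list). Of 7 stromal and endothelial markers 3 were tested and *Pecam1* was called lower (572.8 to 650.0 and 392 to 460.0 for the list), while *Col3a1* and *Pdgfra* had no counts. The part of these other cells in the values below was not tested, and in bulk libraries a change in the number of cells and a change in RNA per cell cannot be told apart.

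Of the overlapping coding genes, only *Dchs1* shares exon bases with its noncoding gene. *Gm15645* (ENSMUSG00000086414.2) is annotated in GENCODE as a transcribed processed pseudogene on the plus strand of GRCm38, chr7:105762321-105863650. *Dchs1* (ENSMUSG00000036862.15) lies on the minus strand at chr7:105752990-105787654 and *Mrpl17* (ENSMUSG00000030879.10) on the minus strand at chr7:105803206-105811099. Of the transcripts of *Gm15645*, the longer has 5 exons and 2208 bases. Its first 4 exons hold 726 bases, and 648 of these (89.3%) lie within exons of *Dchs1*. An intron of 96457 bases then leads to the last exon of 1482 bases. The shorter transcript has 3 exons and lies at this far end only, from 105861768 to 105863331. *Mrpl17* lies wholly in that intron, shares no exon base with *Gm15645*, and is 37495 bases from its nearest exon. RefSeq gives *Gm15645* as a pseudogene from 105861783 to 105864065 only, which overlaps neither coding gene and starts 50695 bases beyond *Mrpl17*. *Gm15880* (ENSMUSG00000084821.1) is annotated as an antisense RNA on the plus strand at chr7:80636017-80644384, the same span in both annotations. It lies within the intron between exons 2 and 3 of the 15-exon *Crtc3* transcript, an intron of 47606 bases. *Crtc3* (ENSMUSG00000030527.15) is on the minus strand at chr7:80586627-80688877. The 2884 exon bases of *Gm15880* share none with *Crtc3*, and the nearest *Crtc3* exon is separated from the span of *Gm15880* by 6277 bases.

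**Figure D1:**
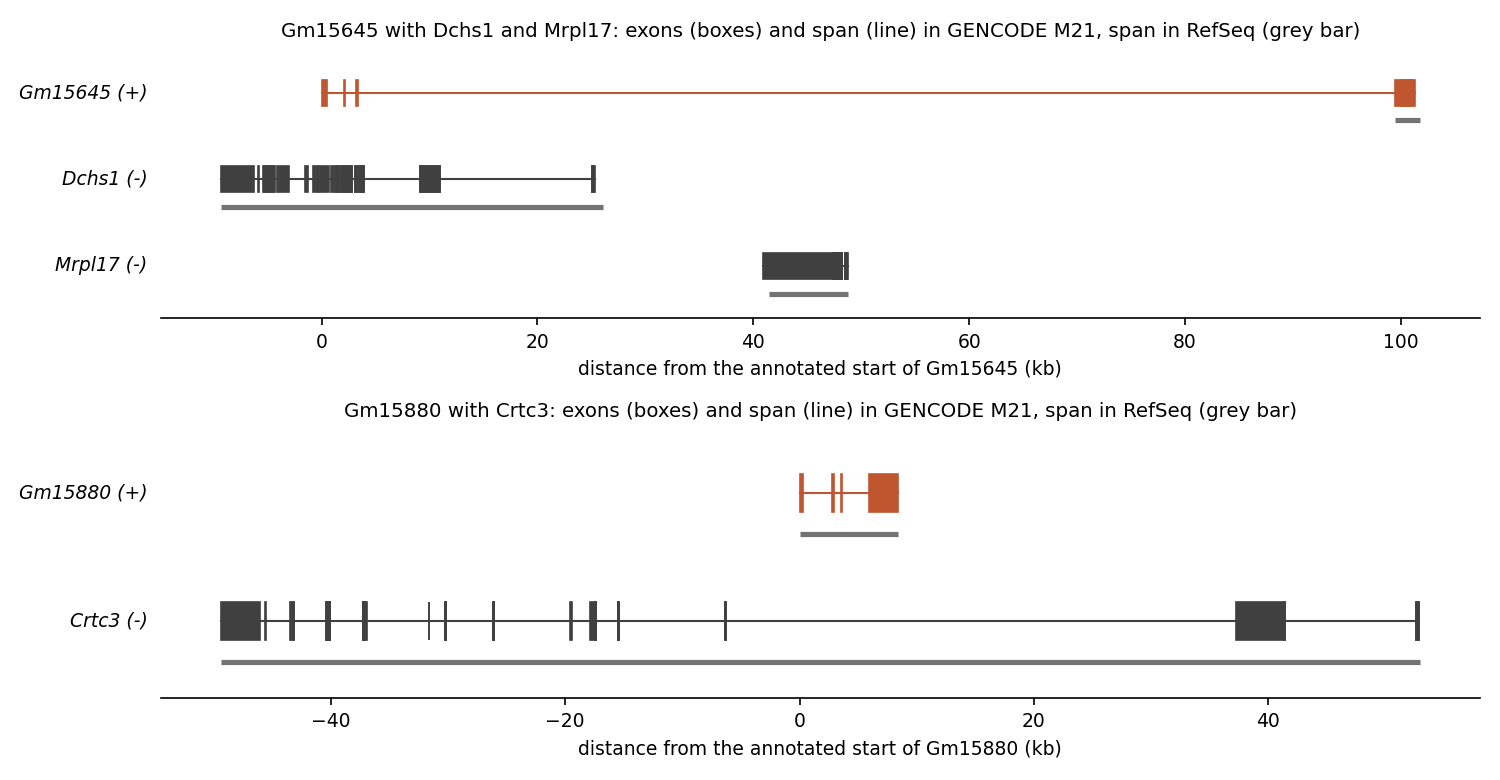
Exons (boxes) and spans (lines) of the noncoding genes (red) and the overlapping coding genes (dark grey) in GENCODE M21, against distance in kb from the annotated start of *Gm15645* (top) or *Gm15880* (bottom), with the RefSeq span as a light grey bar and the strand in brackets. The first 4 exons of *Gm15645* lie over *Dchs1*, its last exon lies beyond both coding genes, and *Gm15880* lies in an intron of *Crtc3*.

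The 3′ end of *Gm15645* is highly similar to *Odc1*, the gene for ornithine decarboxylase, the rate-limiting enzyme of polyamine synthesis, on chromosome 12 (GRCm38, plus strand, chr12:17544794-17551505). The comparison with *Odc1* was made after the values of *Gm15645* were known. In a BLAST alignment of the GENCODE transcripts, the shorter *Gm15645* transcript was 93.4% identical to the *Odc1* transcript of 2208 bases over 1307 columns, with 62 differing bases and 24 gap columns. Nearly all of this match, 1303 columns, fell in the coding sequence of *Odc1*. The stretch of 120 aligned bases without gaps that differs most is shown first, as an example of how the sequences differ outside the gaps. It covers positions 226 to 345 of the shorter *Gm15645* transcript and 783 to 902 of the *Odc1* transcript, counted from the 5′ end of each transcript, and capitals mark the 10 differing bases.

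Gm15645: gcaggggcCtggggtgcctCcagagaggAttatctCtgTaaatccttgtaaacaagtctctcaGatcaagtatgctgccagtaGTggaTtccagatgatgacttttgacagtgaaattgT
Odc1: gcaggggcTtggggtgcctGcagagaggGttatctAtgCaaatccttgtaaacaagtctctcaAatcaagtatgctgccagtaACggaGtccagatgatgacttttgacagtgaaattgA

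The longest run that the 2 transcripts share is shown next, since a read lying within it fits both genes equally. It has 89 bases, at positions 29 to 117 of *Gm15645* and 586 to 674 of *Odc1*.

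shared run: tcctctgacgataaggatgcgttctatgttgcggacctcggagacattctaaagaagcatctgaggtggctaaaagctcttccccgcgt

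Of all 50-base windows of the shorter *Gm15645* transcript, 7.04% were found in *Odc1* without a mismatch and 43.0% with at most 2 mismatches. Of 100-base windows, 0 were found without a mismatch and 12.3% with at most 2. A still closer copy, the processed pseudogene *Gm8982*, lies 0.260 Mb away on the same chromosome and was 99.7% identical to the shorter *Gm15645* transcript over 1298 columns, with 1 mismatch. Of the 50-base windows, 91.8% were found in *Gm8982* without a mismatch, and of the 100-base windows 87.0%. The longer *Gm15645* transcript was less like both. Of its 50-base windows, 1.90% were found in *Odc1* without a mismatch and 18.4% with at most 2. In *Gm8982*, 38.8% of them were found without a mismatch. *Gm8982* is not among the rows analysed here. In all, 14 genes matched the shorter *Gm15645* transcript at 85% identity or more over at least 500 bases. Of these, *Odc1* and *AW146154* are in the count table. The match to *AW146154* is to its opposite strand, 92.7% over 641 columns. No gene matched *Gm15880* at these limits. The read length and the treatment of reads that fit several places are not given in the sources used here, so the count of *Gm15645* is uncertain to that extent.

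*Gm15645* was detected in all libraries and was far higher in *Ahr*-/- cells. In raw counts it had 79, 85 and 96 in *Ahr*+/+ cells, and 697, 1612 and 1254 in *Ahr*-/- cells. These are 76.7, 85.5 and 108 normalized counts in *Ahr*+/+ and 1196, 1146 and 1143 in *Ahr*-/- cells. All *Ahr*-/- libraries were far above all *Ahr*+/+ libraries, and the spread within a genotype was small beside this gap. The means were 90.0 ± 16.0 and 1162 ± 29.8 normalized counts (SD, n = 3 mice each), a log2 fold change of 3.70 with a standard error of 0.092, or 13.0-fold. No test is given, since the gene was chosen by this difference.

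*Odc1*, which has far more counts, was lower in *Ahr*-/- cells, with a smaller change on the log2 scale but a larger one in normalized counts. It had 33509, 32619 and 33250 normalized counts in *Ahr*+/+ and 30165, 30753 and 29396 in *Ahr*-/- libraries. The means were 33126 ± 458 and 30105 ± 681 normalized counts (SD, n = 3 mice each), and every *Ahr*-/- library was below every *Ahr*+/+ one. The log2 fold change of *Odc1* was −0.14 (standard error 0.033, edgeR adjusted p = 0.011, and p = 0.1 in a two-sided exact permutation test, the smallest that 3 against 3 allows). In normalized counts, *Odc1* fell by 3021 where *Gm15645* was higher by 1072, and the sum of both was 33216 ± 457 in *Ahr*+/+ and 31267 ± 685 in *Ahr*-/- cells (SD, n = 3 mice each). *Gm15645* made up 0.228%, 0.261% and 0.323% of the counts on both genes in *Ahr*+/+ libraries, and 3.81%, 3.59% and 3.74% in *Ahr*-/- libraries. The 95% Wilson intervals drawn with these shares cover counting error only, and since *Gm15645* was chosen by this difference they describe the precision of each share and are no test of it. Whether reads of *Odc1* or *Gm8982* enter the count of *Gm15645* was not tested. *Odc1* lies 17.9 Mb from *Ahr* on chromosome 12. *AW146154*, the other gene in the table with a matching stretch, had 301 ± 22.6 and 311 ± 37.1 normalized counts (SD, n = 3 mice each), with overlapping groups (log2 fold change 0.03, edgeR adjusted p = 0.89).

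**Figure D2:**
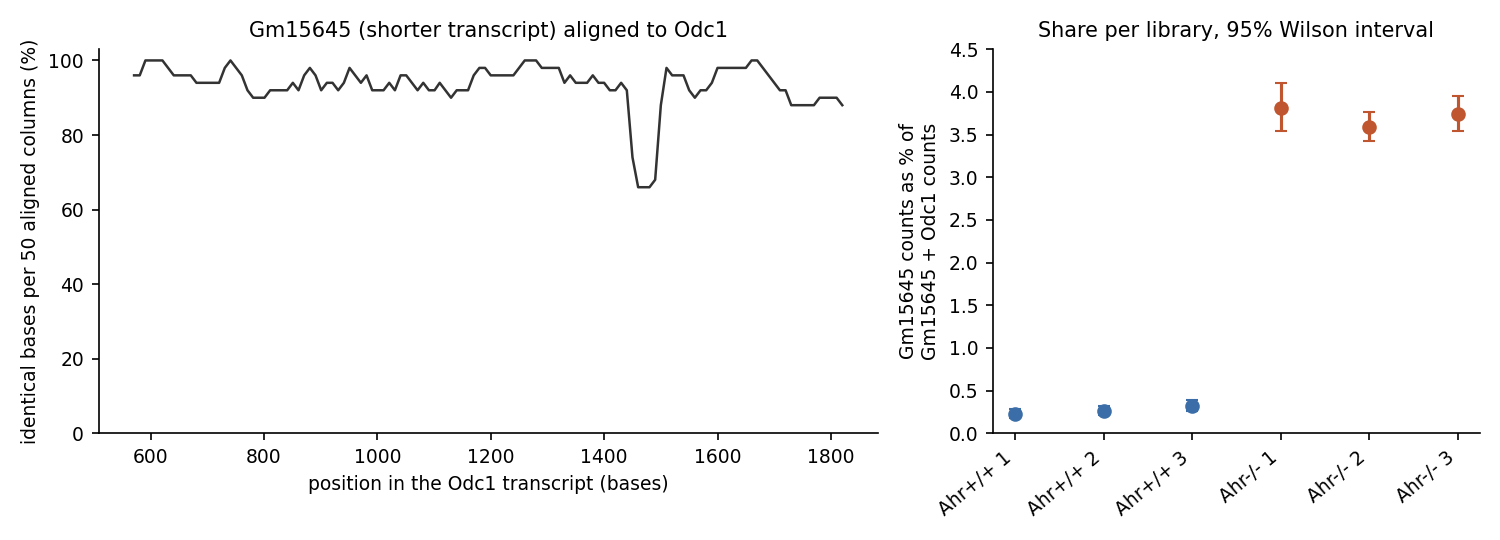
Left, identical bases (%) in windows of 50 aligned columns along the *Odc1* transcript (position in bases) for the shorter *Gm15645* transcript, with a dip where the gaps lie. Right, counts of *Gm15645* as a percentage of the counts of *Gm15645* and *Odc1* together in each library with its 95% Wilson interval, between 0.228% and 0.323% in the 3 *Ahr*+/+ libraries (blue) and between 3.59% and 3.81% in the 3 *Ahr*-/- libraries (red).

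Of the coding genes that overlap *Gm15645*, *Mrpl17* was not called and *Dchs1* had too few counts to be tested by edgeR. *Mrpl17*, the mitochondrial ribosomal protein gene, had 3281, 3400 and 3191 normalized counts in *Ahr*+/+ and 3280, 3184 and 3121 in *Ahr*-/- libraries. The groups overlapped, with means of 3290 ± 105 and 3195 ± 80.0 normalized counts (SD, n = 3 mice each). The log2 fold change of *Mrpl17* was −0.04 (standard error 0.040), with a 95% interval of −0.13 to 0.04 (edgeR adjusted p = 0.51, two-sided exact permutation p = 0.2). *Dchs1* was close to absent, with 3, 0 and 1 counts in *Ahr*+/+ and 3, 0 and 2 counts in *Ahr*-/- libraries. Its total of 9 counts is below the minimum of 10 for the test, no library had more than the floor of 3 counts, and no fold is given. A difference in *Dchs1* was not detectable at this depth (p = 0.7, exact permutation of the normalized counts, two-sided). Counts per exon and the use of strand are not given, so the reads in the exons shared with *Gm15645* are not known.

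*Gm15880*, the antisense RNA within *Crtc3*, was detected at a low level in *Ahr*+/+ cells and hardly at all in *Ahr*-/- cells. In raw counts it had 13, 7 and 9 in *Ahr*+/+ cells, and 0, 1 and 0 in *Ahr*-/- cells. In normalized counts this is 12.6, 7.04 and 10.1 against 0, 0.711 and 0. Each *Ahr*+/+ library held at least 7 counts, and all *Ahr*-/- libraries together held 1. The means were 9.93 ± 2.80 and 0.237 ± 0.410 normalized counts (SD, n = 3 mice each). Against a floor of 3 counts per library, which is 3.34 normalized counts on average in the *Ahr*-/- libraries, *Gm15880* was at least 2.97-fold lower in *Ahr*-/- cells. No test is given, since this difference chose the gene. The use of strand in counting is not given. Whether reads from the *Crtc3* intron around *Gm15880* enter its count was not tested.

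*Crtc3*, which encloses *Gm15880*, was also lower in *Ahr*-/- cells, though by much less. It had 1554, 1671 and 1646 normalized counts in *Ahr*+/+ and 1207, 1172 and 1385 in *Ahr*-/- libraries. The groups did not overlap, which held for 33.5% of all tested genes, and the highest *Ahr*-/- library was replicate 3. The means were 1624 ± 61.7 and 1255 ± 114 normalized counts (SD, n = 3 mice each). The log2 fold change of *Crtc3* was −0.37 (standard error 0.062, edgeR adjusted p = 0.0011), with a 95% interval of −0.50 to −0.24. In the two-sided exact permutation test p was 0.1, the smallest possible. *Crtc3* was called and *Mrpl17*, the other tested coding gene, was not, beside 8.13% of all tested genes called lower.

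Per kilobase of annotated exon, the levels of the genes can be set beside each other. In *Ahr*+/+ cells *Mrpl17* was highest with 433 ± 13.8 normalized counts per kb, followed by *Crtc3* with 165 ± 6.26, *Gm15645* with 35.6 ± 6.33, *Gm15880* with 3.44 ± 0.970 and *Dchs1* with 0.122 ± 0.133 (SD, n = 3 mice each). In *Ahr*-/- cells *Gm15645* reached 459 ± 11.8 normalized counts per kb, beside 420 ± 10.5 for *Mrpl17* and 127 ± 11.6 for *Crtc3* (SD, n = 3 mice each). *Gm15880* and *Dchs1*, at 0.0822 ± 0.142 and 0.210 ± 0.236 normalized counts per kb in *Ahr*-/- cells, did not differ from each other beyond their spread. *Odc1* stood far above all of them, with 9729 ± 134 and 8841 ± 200 normalized counts per kb. These levels depend on the exon lengths of GENCODE M21, which need not be those used for counting. Most of the 7605 exon bases of *Mrpl17* come from the last exon of a single transcript, from 105803206 to 105810144. The other *Mrpl17* transcripts reach down only to 105809657. If that long exon is little read, the level of *Mrpl17* per kb is understated, and counts per exon are not given. The order of *Gm15645* and *Mrpl17* in *Ahr*-/- cells is therefore not settled.

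Promoters of 300 bases, from 250 before to 50 after a RefSeq transcript start (GRCm38.p6), were found for *Gm15880*, *Mrpl17* and *Crtc3*. For *Crtc3* this start lies inside the RefSeq gene span, which reaches 80688948, and other starts were not searched. They were searched on both strands for the core GCGTG, to which AhR with ARNT binds. On the other strand this core reads CACGC. The promoters of *Gm15880* (chr7:80635767-80636066, plus strand) and *Crtc3* (chr7:80688828-80689127, minus strand) hold no core, and that of *Mrpl17* (chr7:105811038-105811337, minus strand) holds 2. Of all 32851 RefSeq promoters of this length, 32.4% hold at least 1 core. The promoter of *Gm15880*, shown for the noncoding gene that was lower in *Ahr*-/- cells, and the *Mrpl17* promoter with 2 cores (capitals, both on the reverse strand) read as follows.

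Gm15880: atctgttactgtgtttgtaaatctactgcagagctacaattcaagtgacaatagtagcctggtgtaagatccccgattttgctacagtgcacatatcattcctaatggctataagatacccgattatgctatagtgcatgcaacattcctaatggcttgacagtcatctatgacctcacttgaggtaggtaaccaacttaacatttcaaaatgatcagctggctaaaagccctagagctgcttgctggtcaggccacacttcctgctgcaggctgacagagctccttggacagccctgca
Mrpl17: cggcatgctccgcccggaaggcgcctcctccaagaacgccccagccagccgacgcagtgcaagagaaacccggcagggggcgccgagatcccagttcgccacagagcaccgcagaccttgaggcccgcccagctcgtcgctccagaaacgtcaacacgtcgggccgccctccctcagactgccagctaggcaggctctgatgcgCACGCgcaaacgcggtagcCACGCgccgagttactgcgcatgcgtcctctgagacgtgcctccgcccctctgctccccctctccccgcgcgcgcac

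A match is only a match of letters, and binding was not measured in these libraries. The *Gm15880* window is 44.7% G and C and holds 2 CpG, against 69.7% and 35 CpG for *Mrpl17* and 74.7% and 40 CpG for *Crtc3*.

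Genes of the CRTC and CREB pathway were called in both directions. Of 26 listed genes, all tested, 5 were higher and 7 lower in *Ahr*-/- cells (46.2% called, against 17.9% of all tested genes), and their median log2 fold change was −0.04 against 0.00 over all tested genes. Among the coactivators *Crtc3* alone was called: the log2 fold change of *Crtc1* was 0.01 (edgeR adjusted p = 0.91) and that of *Crtc2* 0.06 (edgeR adjusted p = 0.43). All 3 salt-inducible kinases, which phosphorylate CRTC proteins, rose, *Sik1* by a log2 fold change of 0.22 (3114 ± 32.3 against 2680.4 ± 80.8 normalized counts), *Sik2* by 0.21 and *Sik3* by 0.29. Of the calcineurin subunits, which remove those phosphates, the catalytic *Ppp3ca* fell by 0.13 and the regulatory *Ppp3r1* fell by 0.15, while *Ppp3cb* had a log2 fold change of 0.02 and was not called. Of the 9 listed CREB target genes 4 were called lower, 2 higher and 3 not at all. *Pde4b*, a cyclic AMP phosphodiesterase, fell by 1.13 on the log2 scale, from 3091 ± 110.0 to 1417 ± 45.6 normalized counts (SD, n = 3 mice each, edgeR adjusted p = 2.3e-09). The orphan nuclear receptors *Nr4a2* and *Nr4a3* fell by 0.75 and by 0.61 on the log2 scale, whereas *Nr4a1* had a log2 fold change of −0.06 and was not called. *Fos*, an AP-1 subunit, fell by 0.64 on the log2 scale. *Rgs2*, a regulator of G protein signalling, rose from a mean of 1494 ± 237 to 2544 ± 161 normalized counts (SD, n = 3 mice each), a log2 fold change of 0.77 (edgeR adjusted p = 4.6e-05), and the clock gene *Per1* rose by 0.20. *Pde4d* (log2 fold change −0.42, edgeR adjusted p = 0.098) and *Dusp1* (0.43, edgeR adjusted p = 0.15) were not called.

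**Figure D3:**
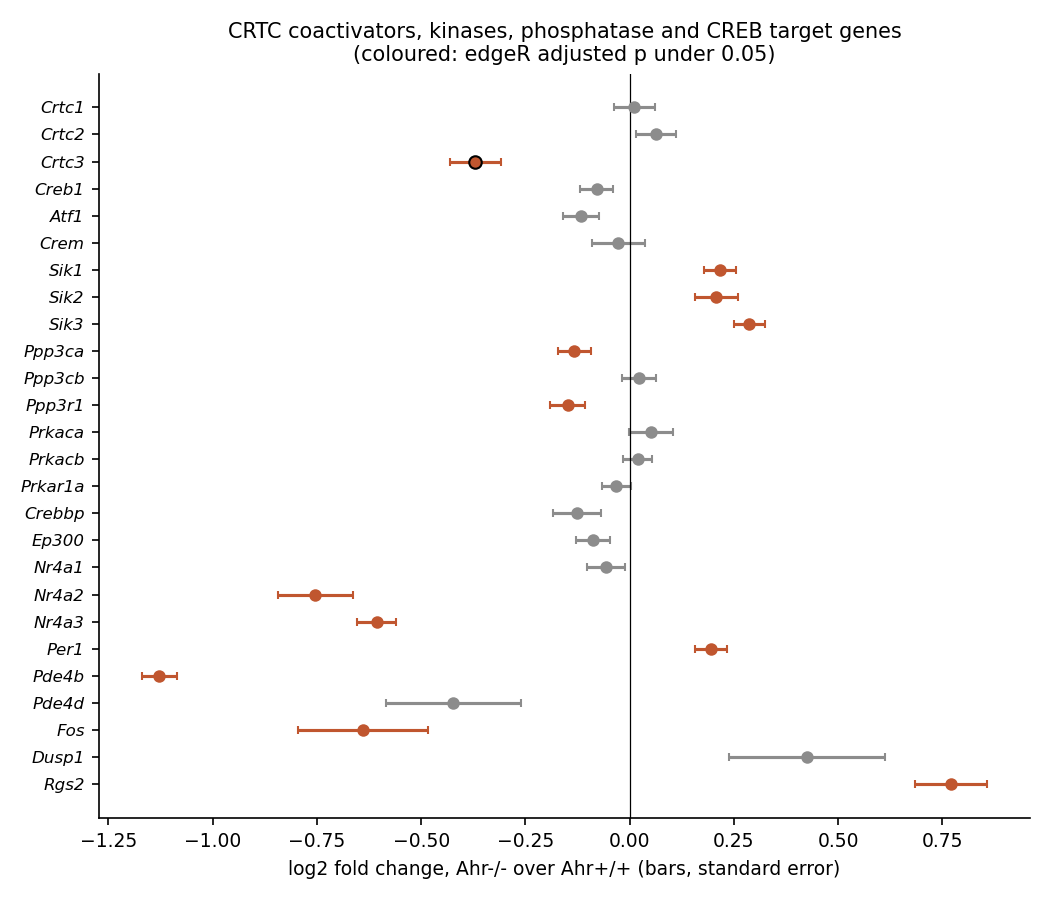
Log2 fold change (*Ahr*-/- over *Ahr*+/+) with its standard error for the 26 listed genes of the CRTC and CREB pathway, in red where called by edgeR at an adjusted p under 0.05 and grey where not, with *Crtc3* outlined. *Crtc3*, *Nr4a2*, *Nr4a3*, *Pde4b* and *Fos* lie left of 0, and *Sik1*, *Sik2*, *Sik3*, *Per1* and *Rgs2* right of it.

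The receptors that pair with *Dchs1* were as scarce as *Dchs1* itself, with no more than 3 counts of *Fat1*, *Fat2*, *Fat3* or *Fat4* in any library. Of the 27 listed genes of the Fat-Dachsous and Hippo pathway 26 were in the table, 15 were tested, 2 were called higher and 2 lower (26.7%, against 17.9% of all tested genes), with a median log2 fold change of 0.03. The Hippo kinase *Stk4* rose by 0.18 (7581 ± 137 to 8572 ± 182 normalized counts, edgeR adjusted p = 0.0038) and its adaptor *Sav1* by 0.14 on the log2 scale. *Mob1b*, an activator of LATS kinases, fell by 0.19 and *Vgll4*, an antagonist of YAP, fell by 0.41 on the log2 scale. Without *Ahr*+/+ replicate 3, 2 of the list were called.

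Of 47 tested genes of the large subunit of the mitochondrial ribosome 1 was called (2.13%, against 17.9% of all tested genes), *Mrpl20*, which rose by a log2 fold change of 0.14 (2491 ± 36.7 to 2741.9 ± 114 normalized counts, edgeR adjusted p = 0.036), and the median of the list was 0.01. The call of *Mrpl20*, the only one, was lost (0 genes called) without *Ahr*+/+ replicate 1 or 2 and without *Ahr*-/- replicate 1 or 2. Of 26 tested genes of the small subunit 2 were called, both higher (7.69%, against 17.9% of all tested genes), with a median log2 fold change of 0.03. These were *Mrps21* (log2 fold change 0.22) and *Mrps7* (0.13), named after their values were seen. This number was 1 without *Ahr*+/+ replicate 1 or *Ahr*-/- replicate 1, 0 without *Ahr*+/+ replicate 3 or *Ahr*-/- replicate 2, and 5 without *Ahr*-/- replicate 3.

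Genes around the noncoding genes were called at a share near that of all tested genes. Of the 10 nearest tested genes on each side of each noncoding gene by RefSeq position, 40 in all with the 5 genes described above left out, 3 were called higher and 2 lower (12.5%, against 17.9% of all tested genes). They reached up to 3655 kb from *Gm15645* and 703 kb from *Gm15880*. Around *Gm15645*, 2 of 20 were called. The nearest of these before it, *Tpp1* at 109.5 kb, a lysosomal peptidase, rose by a log2 fold change of 0.21 (5177 ± 93.6 to 5998 ± 371 normalized counts, edgeR adjusted p = 0.0070), and *Ilk*, which encodes integrin-linked kinase, rose by 0.15 (edgeR adjusted p = 0.032). *Taf10*, between them, had a log2 fold change of 0.01, and after *Gm15645* the nearest were *Gm8979* at −0.02, *Gm4759* at −0.07 and *Ppfibp2* at −0.04, none called. Around *Gm15880*, 1 of 20 was called higher and 2 lower. *Iqgap1*, a scaffold protein of the cytoskeleton and the nearest after it, fell by 0.13 on the log2 scale, while *Zscan2* (0.05), *Wdr73* (−0.03) and, on the other side, *Blm* (−0.07), *Furin* (−0.02) and *Fes* (0.52) were not called. Farther out, *Man2a2*, a mannosidase of N-glycan processing, rose by 0.43 and the phosphodiesterase gene *Pde8a* fell by 0.22 on the log2 scale, both named after their values were seen. The calls numbered 3 of 40 without *Ahr*+/+ replicate 1 or 3, 2 without *Ahr*-/- replicate 2, and 7 without *Ahr*-/- replicate 3.

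**Figure D4:**
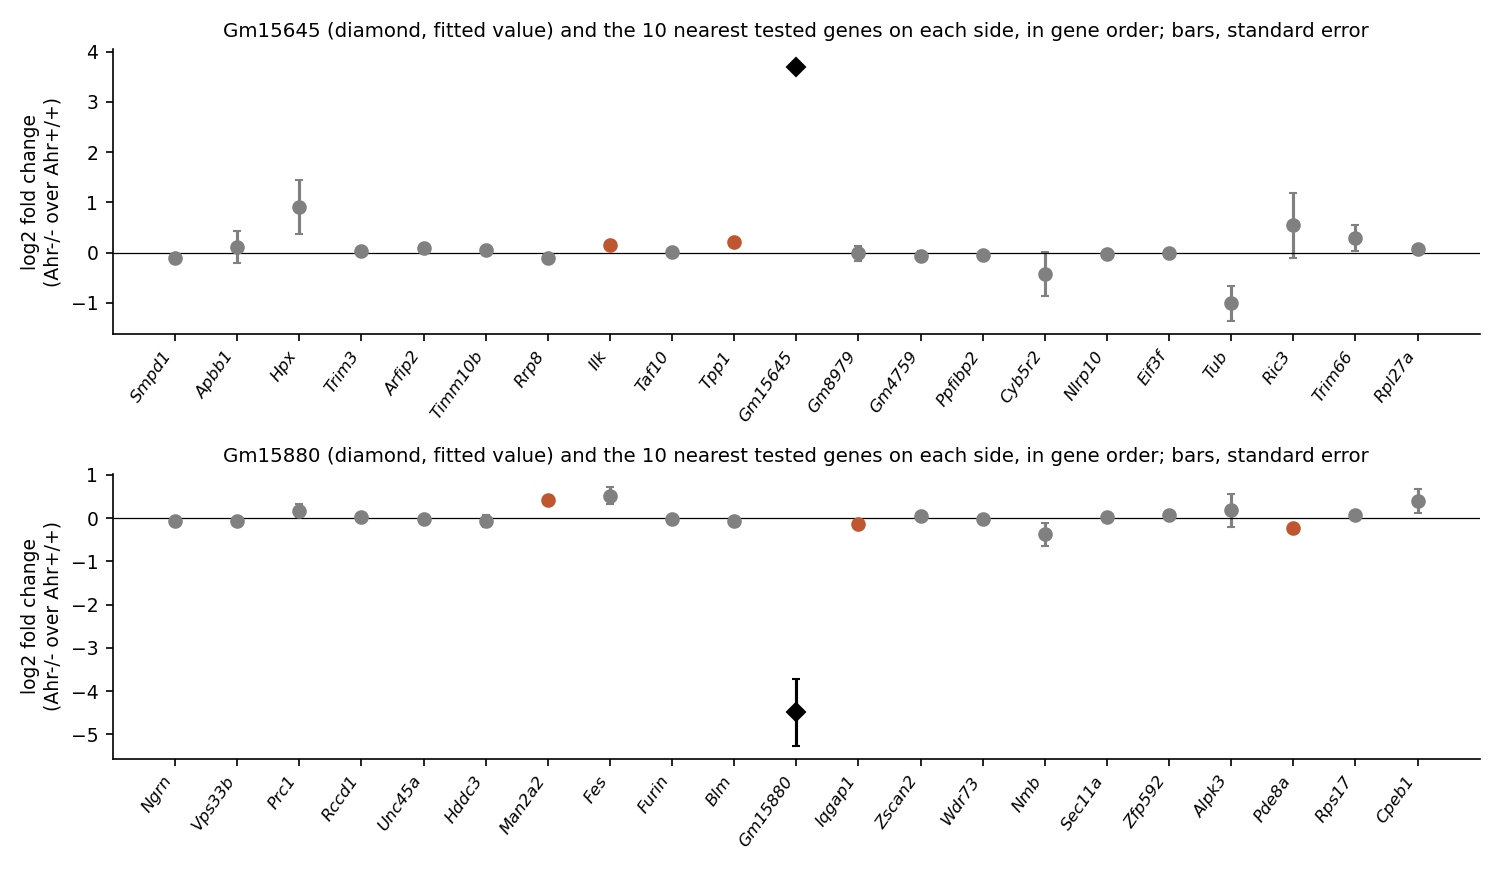
Log2 fold change (*Ahr*-/- over *Ahr*+/+) with its standard error for *Gm15645* (top) and *Gm15880* (bottom), as black diamonds, and for the 10 nearest tested genes on each side in gene order, red where called by edgeR and grey where not. *Gm15645* stands at 3.70 while its neighbours lie between −1.01 and 0.91, and the neighbours of *Gm15880*, whose fitted value depends on the prior count, lie between −0.37 and 0.52.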

How the data were processed

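RNA was measured in 6 libraries, 3 per genotype (TruSeq stranded mRNA). The unnormalized read counts deposited by the authors were used. The submitters' processing notes name TopHat2, HTSeq, DESeq and mm10; the use of strand, the annotation and the read length are not given in the sources used here. The authors' normalized counts and the table of their own comparison, with fold changes and p-values, were not used. Counts were tested with edgeR 4.0.16 (R 4.3.3, quasi-likelihood, TMM, prior count 0.125) over the 13682 genes with at least 10 counts in all, with Benjamini-Hochberg adjustment, after a check on simulated data. Exact permutation tests were two-sided. Replicate pairs of a genotype differed by more than sampling noise (chi-square per degree of freedom 3.98 to 9.40). P-values measure the spread between mice. Sequences and loci came from GENCODE M21 and RefSeq (both GRCm38) and were aligned with blastn 2.17.0.

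The members and lists were chosen with earlier results of these data known. Genes named were the 5 members, the 3 nearest tested genes on each side of each noncoding gene, all called genes of the CRTC and Hippo lists, the called genes of the large ribosomal subunit (at most 3), for each noncoding gene the 5 genes most correlated with it, and *Ahr*. Other genes named (*Odc1*, *Gm8982*, *AW146154*, uncalled members of the lists, cell type markers and those said to be so beside their values) were added after the values were seen. Alternatives were DESeq2 1.42.0, other scalings, filters, a prior count of 2, a replicate block, a stricter threshold and leaving out each library. Depth limits *Gm15880* and *Dchs1*, where the floor was 3 counts per library.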

Additional observations from a re-analysis of the deposited data

How the results depend on the processing

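The log2 fold change of *Gm15645*, given with no test, ranged from 3.59 to 3.84 under the alternatives. *Mrpl17* (−0.07 to −0.02, edgeR or DESeq2 adjusted p 0.39 to 0.80), *Crtc3* (−0.45 to −0.32, adjusted p 3.5e-06 to 0.0079) and *Odc1* (−0.15 to −0.11, adjusted p 3.1e-04 to 0.046) kept their direction and their side of the threshold of 0.05 under all alternatives. The fitted log2 fold change of *Gm15880*, −4.49, was −2.37 with a prior count of 2 and ranged from −6.21 to −4.00 with each library left out; it rests on 1 count in *Ahr*-/- cells and is no bound. When 10 counts were required in 3 libraries, *Gm15880* was not tested. *Dchs1* was below the minimum, and with no filter its log2 fold change was 0.25 (edgeR adjusted p = 0.92).

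At an adjusted p under 0.01 the numbers called fell from 2453 to 1473 for all genes, to 2 of the chromosome 7 neighbours, 2 of the Fat-Dachsous and Hippo list, 0 of the large and 0 of the small mitochondrial ribosomal subunit, and 8 of the genes with Gm symbols. With DESeq2's Wald test, fitted to the same 13682 genes, 0 genes of the large subunit and 9 with Gm symbols were called. Its default filter can leave genes with few counts without an adjusted p, and such genes are not called. With DESeq2 size factors or library size alone, 4 genes of the small subunit were called by edgeR. With each library left out in turn the numbers ranged from 1664 to 2601 for all genes, from 2 to 7 for the neighbours, from 8 to 14 for the CRTC and CREB list, from 2 to 4 for the Fat-Dachsous and Hippo list, from 0 to 1 and from 0 to 5 for the large and small subunits, and from 9 to 14 for genes with Gm symbols. The causes were not tested.

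The deviations of same-numbered libraries from their genotype means had correlations of −0.15, 0.27 and −0.18 over 9931 genes. Those of differently numbered libraries ranged from −0.37 to 0.38. With 3 libraries per genotype, these values cannot show whether mice of the 2 genotypes were handled in pairs. With a replicate block 2304 genes were called, and the log2 fold change was −0.38 for *Crtc3* and −0.04 for *Mrpl17*.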

Other observations

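Of 1197 genes in the table with a systematic Gm symbol, the class of predicted genes from which *Gm15645* and *Gm15880* come, 765 had no counts and 287 were tested. Of these 287, 11 were called higher and 4 lower (5.23%, against 17.9% of all tested genes), and 9 in all were called without *Ahr*+/+ replicate 2. These numbers include *Gm15645* and *Gm15880*, which were chosen by their change in this same comparison. The 2 shares are not matched for count level, and genes with few counts are harder to call.

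The genes whose log2 levels over the 6 libraries were most like those of *Gm15645* were *Spp1* (Pearson r = 0.999), which encodes osteopontin, *4921525O09Rik*, *Sgpl1*, *Sfi1* and *Inf2*, all with a higher mean in *Ahr*-/- cells. *Spp1* had 67.4 ± 2.90 and 193 ± 2.65 normalized counts and *Sgpl1*, the sphingosine phosphate lyase, 5697 ± 83.8 and 7758 ± 86.0 (SD, n = 3 mice each). For *Gm15880*, whose *Ahr*-/- libraries hold 0, 1 and 0 counts, the log2 values on that side are set mostly by the prior count of 2, so the order of the genes nearest to it is no measured likeness. Those genes were *Wapal* (r = 0.998), *Arid4b*, *AI450353*, *Bcl10* and *Mir22hg*, all with a lower mean in *Ahr*-/- cells. *Bcl10* links the B cell receptor to NF-κB. Of these, *Arid4b* had 3784 ± 115 and 3131 ± 43.0 normalized counts, and *Mir22hg* 674 ± 57.1 and 423 ± 16.3 (SD, n = 3 mice each). The libraries fall into 2 genotypes, so these values mostly follow the difference between genotypes. Of 11830 genes compared, 47 had an r above 0.99 with *Gm15645*.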
